A study of Homo sapiens with 4 samples.

Results

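Readthrough genes are annotated genes whose transcripts run from one gene into its downstream neighbour, and they carry a joint name made of the 2 parents, as in TMEM189-UBE2V1. They were taken from RNA sequencing of SH-SY5Y, a long-established neuroblastoma cell line of human origin. The members were chosen by name and by count. A gene entered when its name had the form A-B, when A and B were each listed as a gene too, and when its counts summed over the 4 libraries reached 20. Of 58243 listed genes, 114 had such a name and 75 reached that sum, and these 75 have 150 distinct parents. The summed count that selected them had a median of 176 and a maximum of 2410. Just inside the limit lay PRR5-ARHGAP8 with 24 counts, UBE2F-SCLY with 23 and LINC02210-CRHR1 with 20, and just outside it lay EEF1E1-BLOC1S5, SYNJ2BP-COX16 and ZNF816-ZNF321P with 17 each.

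RNA polymerase II normally stops soon after the transcript has been cut and given its poly(A) tail at the end of a gene. When the end of the upstream gene is passed, the polymerase can go on into the next gene, and splicing can then join exons of the upstream gene to exons of the downstream gene. Some joined transcripts keep an open reading frame and encode a fusion of both proteins, and others hold an early stop codon, which marks a transcript for nonsense-mediated decay (NMD), a surveillance pathway that removes such RNA. Failed transcription termination after osmotic, heat or oxidative stress is known to extend RNA past gene ends in mammalian cells.

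The study compared untreated SH-SY5Y cells, 2 libraries named control a and b, with SH-SY5Y cells exposed for 8 h to sodium nitroprusside (SNP), which is a nitric oxide donor, 2 libraries named SNP a and b. The labels name no dose for the sequenced libraries, they describe the SNP RNA as oxidized, and they speak of cells differentiated with retinoic acid without saying whether the sequenced cells were. The labels call the libraries duplicates and do not say that they came from separate cultures, so the p-values measure only the spread between these libraries, which may be technical. In bulk RNA, fewer cells of a type and less RNA per cell cannot be told apart.

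Summed gene counts per library ranged from 5613144 to 8056550, and 3 counts, used as the smallest amount that a library can show, corresponded to between 0.372 and 0.534 counts per 1000000 counts (CPM), a limit that covers counting error only. A library held counts for 65 to 72 of the 75 readthrough genes, and 57 of them had a count in every library. The line's sympatho-adrenergic markers summed to between 2700 and 2770 CPM in control and between 2030 and 2230 CPM in SNP libraries, with TH, the enzyme that starts catecholamine synthesis, at 0. Of 8 such markers tested, 6 were lower and 1 was higher. Markers of mesenchymal neuroblastoma cells summed to between 247 and 278 CPM in control and between 183 and 186 CPM in SNP libraries. Fibroblast markers summed to between 39.0 and 48.6 CPM and between 63.5 and 64.0 CPM, in the same order. Of 4 mesenchymal markers tested, 1 was lower and none higher, and of 3 fibroblast markers tested, 1 was higher and 1 lower. All 4 blood markers were at 0. The part of these marker shifts in the results below was not tested.

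All 75 readthrough genes were found in GENCODE 29, whose positions are of GRCh38. Of these, 68 are classed there as protein-coding genes, 6 as processed transcripts and 1 as a long intergenic RNA. In 73 the exons overlap exons of both parents. The exceptions are BORCS7-ASMT on chromosome 10, whose second namesake ASMT is annotated on chromosome X, and PTGER4P2-CDK2AP2P2, which shares no exonic base with either gene of its name. Among the 73, a median of 95.67% of the exonic bases also belong to a parent. The unique part is short: 33 of the 75 have fewer than 100 exonic bases that no other gene holds, and 21 have none. Among the 65 loci whose parents do not overlap, the gap between the parents ranged from 138 to 573553 bases with a median of 6613. The readthrough gene starts within 500 bases of the upstream parent's start in 52 cases and ends within 500 bases of the downstream parent's end in 47. A protein-coding transcript is annotated for 44 members, 24 have an NMD transcript and no coding one, and 7 have neither.

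**Figure D1:**
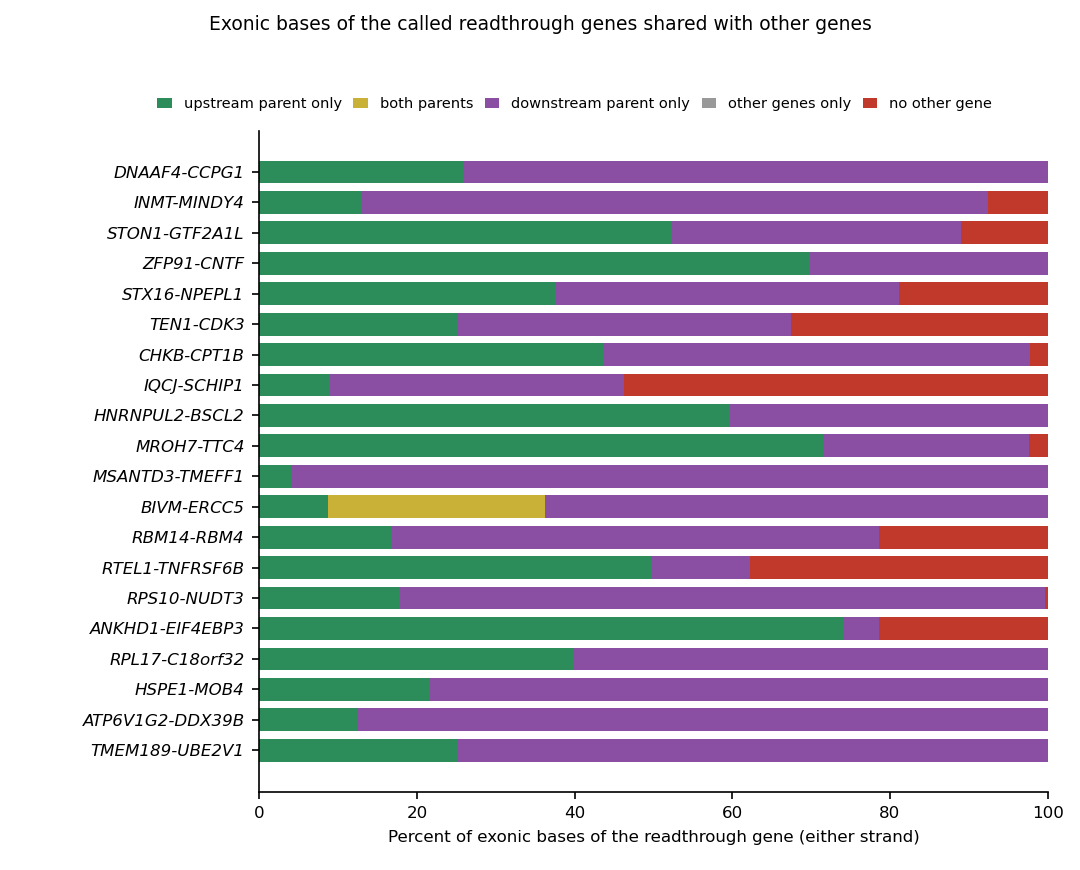
Percent of the exonic bases of each of 20 readthrough genes called between SNP and control that are also exonic in the upstream parent, the downstream parent, both, only other genes, or no other gene (horizontal axis, bars adding to 100). No base is unique in 9 of these genes, among them DNAAF4-CCPG1 and TMEM189-UBE2V1, while RTEL1-TNFRSF6B has 3430 unique bases and IQCJ-SCHIP1 has 2371.

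Where no exonic base is unique, a readthrough transcript differs from its parents in the junction where an upstream exon meets a downstream one. Junctions were kept where 30 bases on each side lay in exons of a parent and in coding sequence of the readthrough transcript. These bases need not be coding in the parent itself. Such junctions were found in 43 members, 69 junctions in all. Each of the 69 sequences of 60 bases occurred in annotated transcripts of the readthrough gene alone. The 8 shown here belong to members whose level differed between SNP and control and include the largest fall and 1 of the largest rises. Lower case marks the last 30 bases of the upstream exon and capitals mark the first 30 bases of the downstream exon, in the direction of transcription (GENCODE 29 transcripts, GRCh38).
TMEM189-UBE2V1: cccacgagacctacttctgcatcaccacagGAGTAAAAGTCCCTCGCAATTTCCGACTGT
ATP6V1G2-DDX39B: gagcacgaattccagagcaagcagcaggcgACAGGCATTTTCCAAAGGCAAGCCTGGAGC
HSPE1-MOB4: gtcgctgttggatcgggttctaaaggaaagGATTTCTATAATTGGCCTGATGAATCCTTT
RPL17-C18orf32: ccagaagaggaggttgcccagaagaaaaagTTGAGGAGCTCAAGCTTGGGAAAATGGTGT
STON1-GTF2A1L: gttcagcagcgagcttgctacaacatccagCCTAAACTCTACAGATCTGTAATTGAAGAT
HNRNPUL2-BSCL2: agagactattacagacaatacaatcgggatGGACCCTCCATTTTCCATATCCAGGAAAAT
MSANTD3-TMEFF1: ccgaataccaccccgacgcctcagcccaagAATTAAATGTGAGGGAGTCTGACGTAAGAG
RPS10-NUDT3: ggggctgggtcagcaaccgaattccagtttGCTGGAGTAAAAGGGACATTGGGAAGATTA
The TMEM189 stretch lies at chr20:50127975-50128004 and the UBE2V1 stretch at chr20:50096791-50096820, minus strand, with 31154 bases spliced out between them. The ATP6V1G2 stretch lies at chr6:31546109-31546138 and the DDX39B stretch at chr6:31542119-31542148, minus strand, 3960 bases apart. The HSPE1 stretch lies at chr2:197501209-197501238 and the MOB4 stretch at chr2:197523624-197523653, plus strand, 22385 bases apart. The RPL17 stretch lies at chr18:49489359-49489388 and the C18orf32 stretch at chr18:49483742-49483771, minus strand, 5587 bases apart. The STON1 stretch lies at chr2:48591826-48591855 and the GTF2A1L stretch at chr2:48620851-48620880, plus strand, 28995 bases apart. The HNRNPUL2 stretch lies at chr11:62715500-62715529 and the BSCL2 stretch at chr11:62707295-62707324, minus strand, 8175 bases apart. The MSANTD3 stretch lies at chr9:100442327-100442356 and the TMEFF1 stretch at chr9:100498765-100498794, plus strand, 56408 bases apart. The RPS10 stretch lies at chr6:34418369-34418398 and the NUDT3 stretch at chr6:34295656-34295685, minus strand, 122683 bases apart. The stretches from the ribosomal protein genes are repeated elsewhere: that of RPS10 occurs in transcripts of 10 annotated genes and that of RPL17 in those of 11.

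SNP was compared with control to find which readthrough genes differed in level after exposure. The counts of all genes were fitted together in edgeR by the quasi-likelihood method, p-values were adjusted after Benjamini and Hochberg over the 14759 genes tested, and a gene was called at an adjusted p under 0.05. Of the 75 readthrough genes, 66 had enough counts to be tested and 9 did not. In SNP libraries 16 were higher and 5 were lower, and 45 were not called. The called share was 31.8% of the tested members against 26.2% of all genes tested. By direction, 24.2% of the members were higher, against 13.6% of all genes, and 7.58% were lower, against 12.6%. The members' median log2 fold change was 0.0334 and that of all genes tested was -0.0042. The median size of the change, regardless of sign, was 0.5268 for members, 0.3114 for parents and 0.2918 for all genes tested. These sets were not matched for counts. A summed count of 500 was reached by 15 of 75 members, 80 of 139 parents and 8662 of 15740 other genes that reached 20. The part of low counts and of the spread between replicates in the larger median was not tested. Both SNP values were above, or both below, the 2 control values in 35 of the 66 tested members, against 64.0% of all genes tested.

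The filter on low counts asks for 1.41 CPM in 2 libraries, and a low gene can pass it through the group where it is high. Of the 66, 48 passed in both groups, and 11 of these were higher and 2 lower. A further 7 passed through the SNP libraries alone, among them 5 of the called rises, DNAAF4-CCPG1, INMT-MINDY4, STON1-GTF2A1L and ZFP91-CNTF included. Another 7 passed through the control libraries alone, among them 3 of the called falls, TMEM189-UBE2V1, ATP6V1G2-DDX39B and HSPE1-MOB4. The remaining 4 passed through 1 library of each group. With the Wald test of DESeq2, without its independent filtering, 6 members were higher and 1 was lower, where 16.1% of all genes tested were called. Those 7 were all among the 21 called by edgeR.

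The largest called rises began with DNAAF4-CCPG1 (ENSG00000261771, chromosome 15, 55355248 to 55498360, minus strand), which joins a gene for dynein arm assembly in cilia to CCPG1, a receptor for autophagy of the endoplasmic reticulum. The control libraries a and b held 0 and 17 counts of it, and the SNP libraries a and b held 102 and 130. Both SNP libraries were far above both control libraries, and the level went from 1.51 ± 2.13 to 14.8 ± 2.83 CPM (SD, n = 2 each). The log2 fold change was 3.37 (SE 0.50, adjusted p = 5.08e-05, edgeR quasi-likelihood), in a test that the gene entered only through the SNP libraries, where it was high. DESeq2 gave an adjusted p of 0.398, and without control b, which leaves only a control library at 0, the log2 fold change was 9.78.

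STX16-NPEPL1 (ENSG00000254995, chromosome 20, 58651434 to 58715410, plus strand) joins a Golgi syntaxin to an aminopeptidase-like gene. Its counts were 16, 22, 85 and 71 in control a, control b, SNP a and SNP b. The groups did not overlap, and the level went from 3.18 ± 1.02 to 9.92 ± 1.06 CPM, with a log2 fold change of 1.65 (SE 0.318, adjusted p = 6.16e-04, edgeR). TEN1-CDK3 (ENSG00000261408, chromosome 17, 75979231 to 76005999, plus strand) joins a telomere-capping subunit to a cyclin-dependent kinase. It had 33, 23, 92 and 101 counts in the same order, with a log2 fold change of 1.42 (SE 0.270, adjusted p = 5.64e-04, edgeR). CHKB-CPT1B (ENSG00000254413, chromosome 22, 50568869 to 50582965, minus strand) joins a choline kinase to the muscle form of carnitine palmitoyltransferase. It had 22, 37, 91 and 102 counts, with a log2 fold change of 1.33 (SE 0.293, adjusted p = 0.00202, edgeR). In these 3 genes each SNP library was above each control library, and the calls held in DESeq2 and without any one library. None of the 3 has a protein-coding readthrough transcript in the annotation, and each has an NMD transcript.

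A further 3 of the 8 largest rises had few counts in control. INMT-MINDY4, which joins an indolethylamine methyltransferase to a deubiquitinase, was counted 7, 0, 15 and 27 times in control a, control b, SNP a and SNP b (log2 fold change 2.20, SE 0.727, adjusted p = 0.0294, edgeR). STON1-GTF2A1L, which joins an endocytic adaptor to a germ-cell form of a TFIIA subunit, was counted 6, 0, 12 and 24 times (log2 fold change 2.19, SE 0.768, adjusted p = 0.0392, edgeR). In both genes control b was at 0 and control a lay below both SNP libraries. Without control b the log2 fold change was 1.30 for each, and neither was called. ZFP91-CNTF, which joins a zinc-finger ubiquitin ligase to ciliary neurotrophic factor, was counted 4, 12, 51 and 23 times (log2 fold change 1.81, SE 0.531, adjusted p = 0.0152, edgeR). Its call was lost without control a (log2 fold change 1.13) and without SNP a (1.14). Calls were also lost for INMT-MINDY4 without SNP b (1.70) and for STON1-GTF2A1L without SNP a (2.63), and STON1-GTF2A1L had an adjusted p of 0.0800 in edgeR with offsets for gene length and base composition. All 3 were above 0.05 in DESeq2, with adjusted p from 0.0782 to 0.163.

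**Figure D2:**
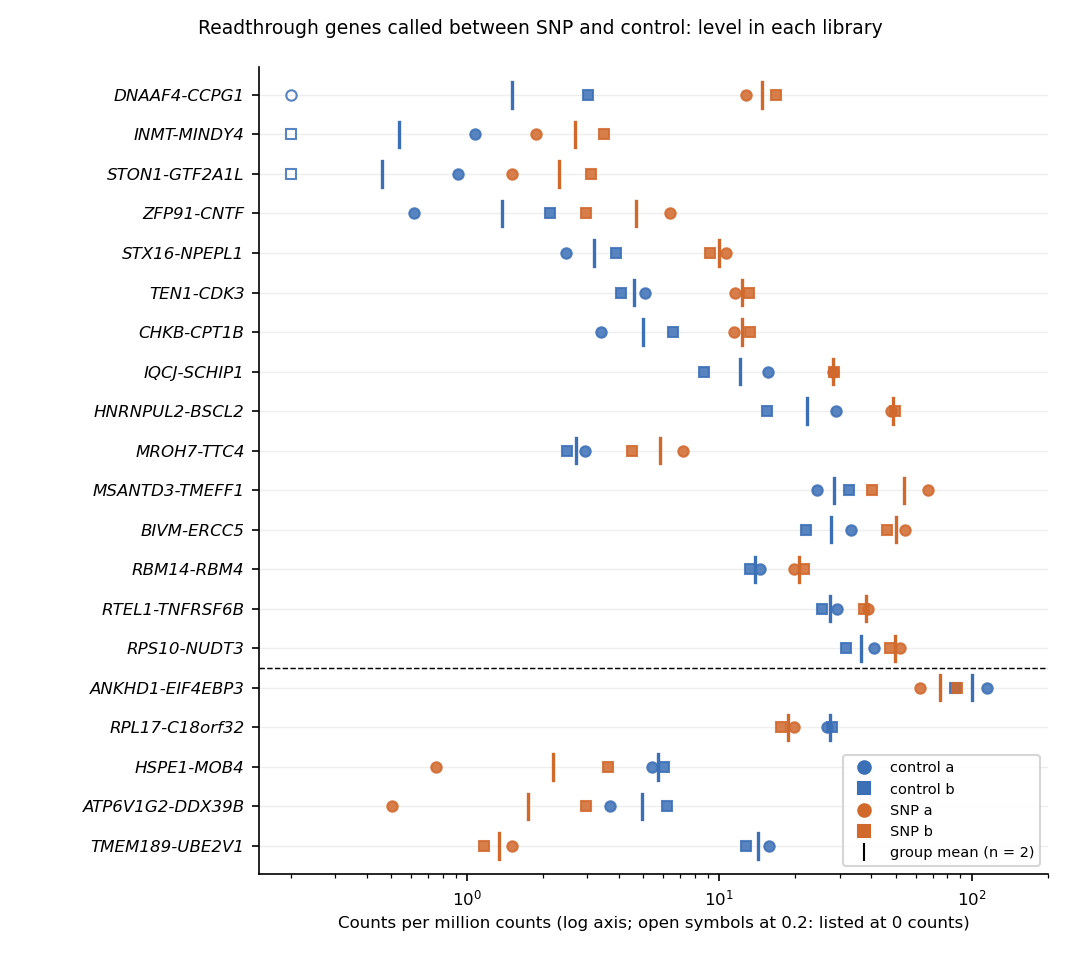
Level of 20 called readthrough genes in the 4 libraries, in CPM on a log axis. Circles are replicate a, squares replicate b, vertical ticks group means (n = 2), and open symbols at 0.2 stand for 0 counts. The 15 genes above the dashed line were higher and the 5 below it lower in SNP, and the groups overlap in ANKHD1-EIF4EBP3 alone.

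TMEM189-UBE2V1 (ENSG00000124208, chromosome 20, 50081124 to 50153637, minus strand) had the largest fall. TMEM189 makes the vinyl-ether bond of plasmalogen lipids, UBE2V1 is a ubiquitin-conjugating enzyme variant, and the joined gene has 1 transcript, which is coding. The control libraries a and b held 102 and 72 counts of it, and the SNP libraries a and b held 12 and 9. The SNP libraries were both far below the control libraries, and the level went from 14.2 ± 2.08 to 1.34 ± 0.243 CPM (SD, n = 2 each), 10.5-fold lower. The log2 fold change was -3.40 (SE 0.333, adjusted p = 4.17e-07, edgeR quasi-likelihood), and DESeq2 gave an adjusted p of 3.76e-10. The gene entered the test only through the control libraries, where it was high. Its log2 fold change ranged from -3.60 to -3.22 when a library was left out, with the call kept each time.

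The other 4 called falls were smaller or less even. ATP6V1G2-DDX39B, which joins a proton pump subunit to an RNA helicase of mRNA export, was counted 24, 35, 4 and 23 times in control a, control b, SNP a and SNP b. Its log2 fold change was -1.50 (SE 0.530, adjusted p = 0.0412, edgeR). HSPE1-MOB4, which joins a mitochondrial co-chaperonin to a subunit of striatin complexes, was counted 35, 34, 6 and 28 times, with a log2 fold change of -1.38 (SE 0.473, adjusted p = 0.0346, edgeR). In both genes SNP a was much lower than SNP b. Without SNP a the log2 fold changes were -0.72 and -0.65 and neither was called, and neither was called without control b (-1.09 and -1.30). With offsets for length and base composition the adjusted p of ATP6V1G2-DDX39B was 0.0681 in edgeR.

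RPL17-C18orf32, which joins a ribosomal protein gene to C18orf32, was counted 174, 158, 158 and 136 times, or 27.4 ± 0.858 CPM in control and 18.7 ± 1.59 CPM in SNP. Its log2 fold change was -0.55 (SE 0.170, adjusted p = 0.0212, edgeR), and the call was lost without control a (-0.58), control b (-0.52) or SNP b (-0.46). ANKHD1-EIF4EBP3, which joins an ankyrin-repeat gene to a repressor of translation initiation, was the member with the most counts: 750, 484, 499 and 677. SNP b lay above control b in CPM as well, 87.5 against 85.7, so the groups overlapped. Its log2 fold change was -0.42 (SE 0.148, adjusted p = 0.0375, edgeR). It was -0.20 without control a or without SNP a, not called in either case, and -0.13 (adjusted p = 0.565) with offsets for gene length and base composition. DESeq2 gave these 4 genes adjusted p from 0.109 to 0.151.

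The 8 other called rises were well counted for the most part. MSANTD3-TMEFF1 joins a Myb/SANT-domain gene to a transmembrane protein with EGF-like and follistatin-like domains, and was counted 159, 184, 537 and 312 times in control a, control b, SNP a and SNP b. Both SNP values were above both control values, with a log2 fold change of 0.93 (SE 0.193, adjusted p = 0.00126, edgeR). DESeq2 gave it an adjusted p of 0.127, and the call was lost with offsets for length and base composition, where the log2 fold change was 0.48 (adjusted p = 0.0672, edgeR). Without SNP a the log2 fold change was 0.51, with the call kept. BIVM-ERCC5 joins a gene of little-known function to the XPG endonuclease of nucleotide excision repair, and had 216, 125, 432 and 356 counts. Its log2 fold change was 0.85 (SE 0.167, adjusted p = 7.70e-04, edgeR). RPS10-NUDT3 joins a ribosomal protein gene to a phosphohydrolase of inositol pyrophosphates, and had 267, 179, 416 and 366 counts. Its log2 fold change was 0.45 (SE 0.146, adjusted p = 0.0273, edgeR), and the call was lost without control b (0.28), without SNP a (0.37), with the offsets (0.31, adjusted p = 0.112) and in DESeq2 (adjusted p = 0.103).

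Named after their values were seen, to complete the called members, are 5 more. HNRNPUL2-BSCL2, whose parents encode an RNA-binding protein and the lipid-droplet protein seipin, had 188, 87, 381 and 385 counts and a log2 fold change of 1.12 (SE 0.192, adjusted p = 2.06e-04, edgeR), or 0.69 with the offsets, still called. IQCJ-SCHIP1, named for a gene with a calmodulin-binding motif and a schwannomin-interacting protein, has 14 annotated transcripts, 2 of which hold coding sequence of both parents. It had 101, 49, 224 and 220 counts and a log2 fold change of 1.21 (SE 0.213, adjusted p = 2.76e-04, edgeR). Both were called in DESeq2 and without any one library, as was BIVM-ERCC5. MROH7-TTC4, which ends in a co-chaperone gene, had 19, 14, 57 and 35 counts and a log2 fold change of 1.10 (SE 0.379, adjusted p = 0.0348, edgeR). RBM14-RBM4, which joins 2 RNA-binding protein genes, had 94, 75, 158 and 167 counts and a log2 fold change of 0.58 (SE 0.189, adjusted p = 0.0285, edgeR). RTEL1-TNFRSF6B, which joins a telomere helicase to a decoy receptor for Fas ligand, had 191, 144, 308 and 289 counts and a log2 fold change of 0.47 (SE 0.151, adjusted p = 0.0258, edgeR). In all 5 the groups did not overlap. The last 3 were above 0.05 in DESeq2 (adjusted p 0.173, 0.142 and 0.110) and lost the call without control a (1.23, 0.64 and 0.57, in this order) or control b (1.00, 0.52 and 0.37). MROH7-TTC4 and RTEL1-TNFRSF6B also lost it without SNP a (0.74 and 0.44), and RBM14-RBM4 without SNP b (0.52).

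Of the 6 members with the most counts, which held 38.0% of all member counts, 2 were not called. BOLA2-SMG1P6, which joins an iron-sulfur cluster gene to a pseudogene copy of the NMD kinase SMG1, was counted 567, 481, 635 and 659 times, 86.2 ± 1.45 CPM in control and 82.5 ± 3.87 CPM in SNP. The groups overlapped (log2 fold change -0.06, SE 0.112, adjusted p = 0.719, edgeR). SLX1A-SULT1A3, which joins a structure-specific endonuclease subunit to a sulfotransferase of catecholamines, had 332, 333, 358 and 439 counts (log2 fold change -0.11, SE 0.139, adjusted p = 0.596, edgeR). Both lie in a part of chromosome 16 with near-identical gene copies, and SLX1B-SULT1A4 is such a copy, so the division of reads between copies is uncertain. The 45 members not called had log2 fold changes from -1.64 to 1.35 with standard errors from 0.112 to 0.879. The smallest adjusted p among them was 0.0512, for PKD1P6-NPIPP1, followed by 0.0533 for SLX1B-SULT1A4.

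The parents were read from the same fit to see whether a readthrough gene moved with the genes it joins. Of the 150 parents, 134 were tested and 30 were called, 18 higher and 12 lower, or 22.4% against 26.2% of all genes tested. Among upstream parents 9 rose and 8 fell of 72 tested, and among downstream parents 9 rose and 4 fell of 62. For 14 of the 21 called readthrough genes neither parent was called. This was as common among the 45 members not called, of which 14 had a called parent and most had none. The parents of TMEM189-UBE2V1, a called member, were not called. TMEM189 had 210, 147, 240 and 249 counts (log2 fold change 0.09, SE 0.159) and UBE2V1 had 567, 574, 750 and 705 (-0.03, SE 0.114), both with overlapping groups. DNAAF4, with 71, 81, 92 and 82 counts, and CCPG1, with 236, 212, 407 and 318, had log2 fold changes of -0.18 (SE 0.228) and 0.32 (SE 0.144), neither called.

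A parent moved in the same direction as the readthrough gene in 4 of the 21 and in the opposite direction in 4, with HNRNPUL2-BSCL2 in both sets. HNRNPUL2 was counted 612, 461, 1407 and 1158 times and rose by 0.89 on the log2 scale (SE 0.115, adjusted p = 1.15e-05, edgeR), while BSCL2 was counted 275, 238, 149 and 220 times and fell by 0.84 (SE 0.173, adjusted p = 0.00113, edgeR). The joined gene rose with its upstream parent and against its downstream parent. RPS10 was counted 870, 872, 595 and 508 times and fell by 1.04 on the log2 scale (SE 0.116, adjusted p = 2.01e-06, edgeR), whereas RPS10-NUDT3 rose. NUDT3 was counted 2658, 2506, 3253 and 3009 times, with a log2 fold change of -0.10 (SE 0.0912) that was not called. STON1 fell by 0.62 on the log2 scale (adjusted p = 0.0392, edgeR) where STON1-GTF2A1L rose, and GTF2A1L had 0 counts in all 4 libraries. ANKHD1 rose by 0.35 (adjusted p = 0.0125, edgeR) where ANKHD1-EIF4EBP3 fell. The other parents that moved with their readthrough gene were ZFP91 (0.45), STX16 (0.40) and C18orf32 (-0.72).

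**Figure D3:**
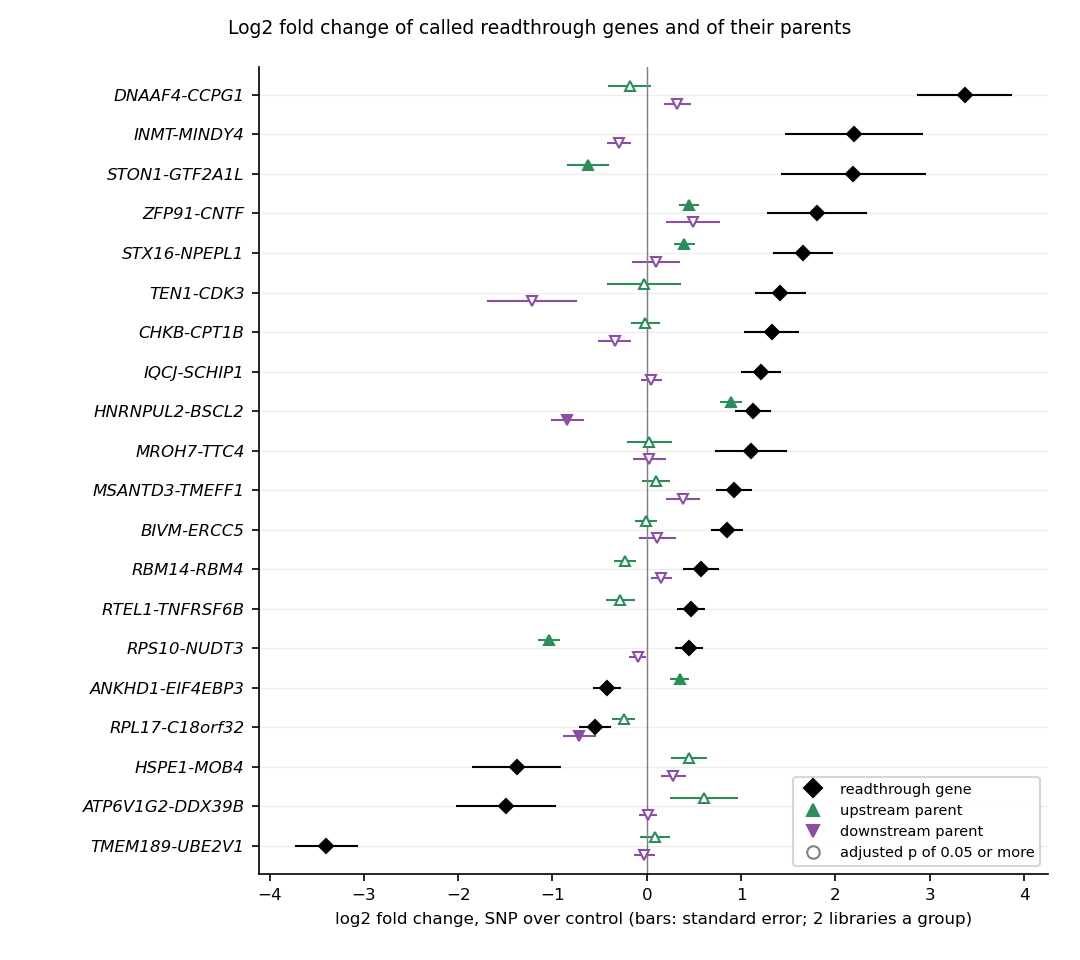
Log2 fold change of SNP over control (horizontal axis) with its standard error for 20 called readthrough genes (diamonds) and for those of their upstream (upward triangles) and downstream (downward triangles) parents that were tested. Filled triangles were called, and for 13 of these 20 loci no parent is filled, TMEM189-UBE2V1 among them.

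Conversely, 14 readthrough genes that were not called, and 5 that were not tested, had a called parent. BCL2L2-PABPN1, which joins a survival gene of the BCL2 family to the nuclear poly(A)-binding protein gene, had both parents called: BCL2L2 rose by 0.95 and PABPN1 by 0.91 on the log2 scale, while the joined gene, at 15, 39, 62 and 54 counts, had a log2 fold change of 0.71 (SE 0.373) and was not called. POC1B-GALNT4 had a log2 fold change of -1.64 (SE 0.672, not called) beside a rise of 1.18 in GALNT4, an enzyme that starts mucin-type glycosylation. PPAN and P2RY11, a ribosome biogenesis factor and a purine receptor, rose by 0.95 and 0.69, while PPAN-P2RY11 had 39 counts in control a and 0 in the other 3 libraries.

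The changes of readthrough genes and parents were then set side by side across loci. Over the 63 loci where the readthrough gene and its upstream parent were both tested, Pearson's r of the log2 fold changes was -0.142 and Spearman's rho -0.101. Over the 56 loci with the downstream parent they were -0.0172 and 0.0505. The parents of one locus had r = 0.199 and rho = 0.22 over 60 loci. These values describe loci in the same 4 libraries, members share exonic bases with their parents, and no p is attached to them.

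**Figure D4:**
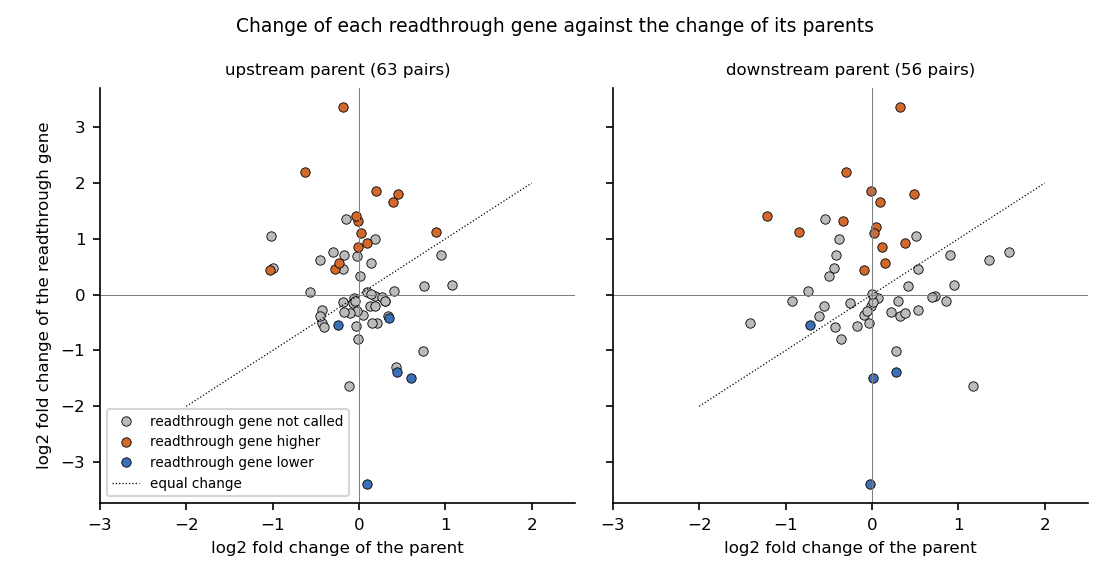
Log2 fold change of each readthrough gene (vertical axis) against that of its upstream parent (left, 63 loci) and downstream parent (right, 56 loci); the dotted line marks equal change. Called readthrough genes, which were selected by their change, lie far from the dotted line in most loci, and TMEM189-UBE2V1 sits at -3.40 with both parents near 0. Over all loci shown, the median difference, readthrough gene minus parent, was -0.0701 (upstream) and -0.0273 (downstream).

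The ratio of readthrough to parent counts was taken within each library, as log2 with 0.5 added to both counts. Relative to the upstream parent, the ratio was higher in both SNP libraries than in both control libraries for 18 of the 63 loci and lower for 14. Relative to the downstream parent it was higher for 19 of 56 and lower for 9. For single levels in place of ratios, the groups did not overlap in 64.0% of all genes tested. The difference between the log2 fold changes of readthrough gene and parent exceeded 2 of its standard errors for 29 and 25 loci, respectively, with SEs combined as if independent. With 2 libraries against 2, an exact two-sided permutation test cannot go below p = 0.333, so the ratios carry no test of their own. TMEM189-UBE2V1 had a log2 ratio to TMEM189 of -1.04 and -1.02 in control a and b and of -4.27 and -4.72 in SNP a and b. RPS10-NUDT3 had a log2 ratio to RPS10 of -1.70 and -2.28 in control and of -0.52 and -0.47 in SNP. HNRNPUL2-BSCL2 had a log2 ratio to BSCL2 of -0.55 and -1.45 in control and of 1.35 and 0.81 in SNP, so the joined gene went from fewer to more counts than its downstream parent. The median change of the ratio was -0.03 over the 63 loci with upstream and 0.09 over the 56 with downstream parents, and its sign changed when single libraries were left out.

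As a share of all counts assigned to the locus, the readthrough gene held a median of 10.3% in control and 10.9% in SNP libraries. On the length-corrected TPM scale the medians were 16.5% and 15.6%. Mean TPM over the 4 libraries was above that of the upstream parent in 12 of the 75 loci and above that of the downstream parent in 31. TEN1-CDK3 held 43.4% and 30.3% of the counts of its locus in control a and b, and 64.3% and 74.3% in SNP a and b. CHKB-CPT1B held 5.14% and 11.0% in control and 18.7% and 19.6% in SNP. TMEM189-UBE2V1 held 11.6% and 9.08% in control and 1.20% and 0.935% in SNP. The share was higher in both SNP libraries for 23 of the 75 loci and lower in both for 12, beside the 64.0% of all genes tested whose levels did not overlap.

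When the readthrough gene and its parents were summed to one value per locus before the fit, 11 of 75 loci were higher and 10 lower, where 26.9% of all features tested were called. This sum does not depend on how counted reads were divided between the readthrough gene and its parents. It can still depend on reads left uncounted or given to other genes, since the counting rule is not given. Of the 21 called readthrough genes, 6 kept a call in the same direction at the level of the locus and none had one in the opposite direction. They were DNAAF4-CCPG1 (log2 fold change of the locus 0.50), ZFP91-CNTF (0.48), STX16-NPEPL1 (0.44), MSANTD3-TMEFF1 (0.51), HNRNPUL2-BSCL2 (0.63) and RPL17-C18orf32 (-0.32). The TMEM189-UBE2V1 locus summed to 879, 793, 1002 and 963 counts, with a log2 fold change of -0.14 (adjusted p = 0.346, edgeR), and the CHKB-CPT1B locus to 428, 337, 487 and 520, with one of 0.03 (adjusted p = 0.882, edgeR).

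As a class, the 75 readthrough genes took 895 and 852 CPM in control a and b and 952 and 966 CPM in SNP a and b, without TMM scaling. The groups did not overlap, with means of 873 ± 30.2 and 959 ± 10.0 CPM (SD, n = 2 each), 0.14 apart on the log2 scale. The upstream parents summed to 3265 ± 84 and 3463 ± 56.9 CPM, which did not overlap either, and the downstream parents to 2709 ± 144 and 2639 ± 2.81 CPM, which overlapped. On the TPM scale the class stood 0.22 apart on the log2 scale, so the size of its rise moved by over 1.5 times with the unit. The parents also moved with the unit. In TPM the upstream parents were 0.10 and the downstream parents 0.12 higher in SNP on the log2 scale, with no overlap in either set. In CPM the downstream difference was -0.04.

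By the kind of transcript annotated, the 22 tested members with an NMD and no coding transcript included 8 called rises and 1 called fall, with a median log2 fold change of 0.1532, where 13.6% of all genes tested were higher and 12.6% lower. The 37 tested members with a coding transcript included 7 rises and 4 falls, with a median of 0.0589, and the 7 with neither included 1 rise and no fall. The difference between these classes was not tested. These counts include members that entered the test only through the group where they were high. In the NMD class these were the rises of INMT-MINDY4 and ZFP91-CNTF and the fall of ATP6V1G2-DDX39B. By unique sequence, the 20 tested members with no unique exonic base had 5 rises and 4 falls and a median size of change of 0.7809 on the log2 scale. Of these, the falls of TMEM189-UBE2V1, ATP6V1G2-DDX39B and HSPE1-MOB4 entered the test only through the control libraries. The rises of DNAAF4-CCPG1 and ZFP91-CNTF entered only through the SNP libraries. The 25 with 1 or more but under 500 unique bases had 6 rises and no fall (0.5067), and the 21 with 500 or more had 5 rises and 1 fall (0.5026). Replicates differed most where no base was unique. The median size of the log2 ratio between replicates there was 0.887 in control and 0.8277 in SNP, no smaller than the change. It was 0.8139 and 0.6113 with 1 to under 500 unique bases, and 0.2865 and 0.2704 with 500 or more.

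The replicates of a group were compared next. In 11 of the 75, or 14.7%, one replicate of a group had 0 counts and the other 10 or more. The same held for 0 of 139 parents that reached the same summed count and for 61 of 15740 other genes, or 0.388%. The figures were also compared at like counts. At summed counts of 20 to 99 it was 9 of 25 readthrough genes (36.0%) against 51 of 3116 other genes (1.64%), and at 100 or more it was 2 of 50 (4.0%) against 10 of 12624 (0.0792%). Among parents it was 0 of 8 and 0 of 131 in these ranges. The median size of the log2 ratio between replicates gave another order at low counts. At summed counts of 20 to 99 it was 3.03 in control for readthrough genes, against 0.51 for parents and 0.58 for other genes. In SNP it was 1.12 for readthrough genes, against 1.34 for parents and 0.47 for other genes, so the 8 low parents differed between the SNP replicates at least as much. At 100 to under 500, control and SNP gave 0.40 and 0.40 for readthrough genes, 0.32 and 0.34 for parents, and 0.26 and 0.25 for other genes. At 500 or more they gave 0.36 and 0.20, 0.16 and 0.16, and 0.11 and 0.14, in the same order. All 11 members with 0 against 10 or more counts had fewer than 500 unique exonic bases: 4 of the 21 members with none, 7 of the 32 with 1 or more but under 500, and 0 of the 22 with 500 or more. The median summed counts of these 3 sets were 154, 116.5 and 372. The part of the division of shared reads in these differences was not tested.

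DNAAF4-CCPG1 was among the 11. The splits are given next for the members with the most counts among those not called. POC1B-GALNT4, which starts in a centriole gene, had 26 and 81 counts in control a and b and 0 and 45 in SNP a and b. BORCS7-ASMT, which shares exonic bases with the lysosome-positioning gene BORCS7 and none with the ASMT gene of chromosome X, had 2 and 57 in control and 0 and 32 in SNP. Both were low in replicate a of both groups. ARL2-SNX15, which joins a small GTPase to a sorting nexin, had 0 counts in 3 libraries and 42 in SNP a, and PPAN-P2RY11 had its 39 counts in control a. TGIF2-C20orf24, which starts in a homeobox repressor gene, had 0 and 13 in control and 17 and 27 in SNP. RPL36A-HNRNPH2, which joins a ribosomal protein gene to an RNA-binding protein gene, had 18 and 0 in control and 16 and 5 in SNP. BLOC1S5-TXNDC5, named after its values were seen, had 123 and 66 in control and 188 and 1 in SNP. Its SNP libraries differed the most while both control libraries lay between them. None of these 7 was called, and ARL2-SNX15 and PPAN-P2RY11 were not tested. POC1B-GALNT4 would be called without control a (log2 fold change -2.31) or SNP b (-8.92), BORCS7-ASMT without control a (-2.29) or SNP b (-8.09), and TGIF2-C20orf24 without control b (7.39). BLOC1S5-TXNDC5 would be called lower without SNP a (-6.70) and higher without SNP b (0.61). ARL2-SNX15 was tested in the 3 fits that kept SNP a and called higher in each (7.25 to 8.15), and PPAN-P2RY11 was tested in the 3 that kept control a and called lower in each (-8.48 to -7.36). In the cases of POC1B-GALNT4, BORCS7-ASMT and TGIF2-C20orf24 the library that remained in the group was at 0 or was the higher one.

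**Figure D5:**
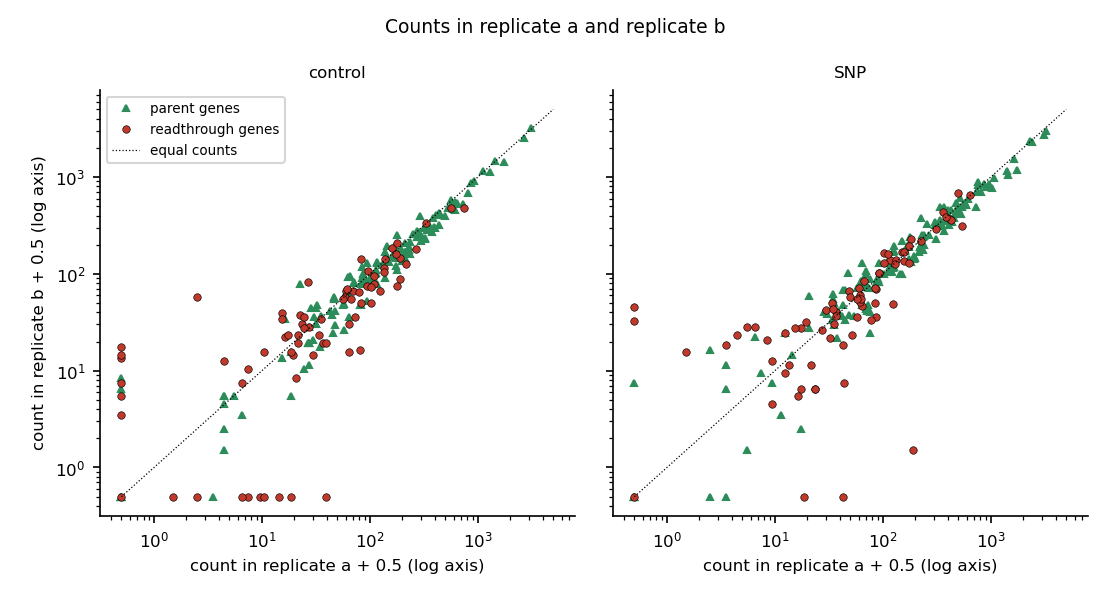
Counts plus 0.5 in replicate a (horizontal axis) and replicate b (vertical axis) of the control group (left) and the SNP group (right), both on log axes, for 75 readthrough genes (circles) and their parents (triangles). Most parents, well counted, lie near the dotted line of equal counts, readthrough genes and the few parents at low counts scatter more, and 11 readthrough genes have 0 in one replicate and 10 or more in the other.

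The genes that end transcripts were read from the same fit, in a list of cleavage and polyadenylation factors and a list of termination and elongation factors. Of 21 cleavage and polyadenylation genes tested, 9 were higher and none was lower at an adjusted p under 0.05 in edgeR, with a median log2 fold change of 0.1802, against 13.6% higher among all genes tested. PABPN1, which coats poly(A) tails in the nucleus, was counted 432, 316, 1032 and 777 times in control a, control b, SNP a and SNP b and rose by 0.91 on the log2 scale (SE 0.131, adjusted p = 3.97e-05, edgeR). RBBP6, a factor needed for efficient cleavage, rose by 0.59. CSTF3, the scaffold of the cleavage stimulation factor, and CSTF2T, a subunit of it that binds RNA downstream of the cleavage site, rose by 0.71 and 0.61. In all 4 both SNP values were above both control values. With offsets for length and base composition PABPN1 stood at 0.55 and CSTF3 at 0.32, and 4 of the 9 lost the call: CSTF2, FIP1L1, NUDT21 and CPSF6, with adjusted p of 0.0513, 0.191, 0.355 and 0.143 in edgeR. CPSF3, at -0.25 and not called without the offsets, was called lower with them (-0.48, adjusted p = 0.001, edgeR). It was also called lower with the replicate letter as a block (adjusted p = 0.0492, edgeR). CPSF4 and CPSF7, not called without the offsets, were called higher with them (0.37 and 0.26).

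Of 27 termination and elongation genes tested, 8 were higher and 2 lower, with a median log2 fold change of 0.1401, against 13.6% higher and 12.6% lower among all genes tested. The histone chaperone SUPT6H rose by 0.42, the elongation factors RTF1 and LEO1 by 0.47 and 0.55, and CDK9, the kinase that releases paused polymerase, by 0.48. INTS9, a subunit of the Integrator complex, which ends transcription of small nuclear RNA genes, fell by 0.67 (SE 0.134, adjusted p = 8.72e-04, edgeR), and RPRD2, which binds the polymerase tail, fell by 0.39. With offsets for length and base composition the values of LEO1 and RPRD2 were -0.09 and 0.02, and those of RTF1 and CDK9 were 0.25 and 0.23, none of them called. Of the 10 called genes of this list, SUPT6H and INTS9 (0.35 and -0.35) kept the call with the offsets. PPP1R10, CDK12 and CCNK, not called without the offsets, were called higher with them (0.47, 0.23 and 0.34). Across both lists 19 of 48 genes were called, against 26.2% of all genes tested, and 9 or 8 when control a or control b was left out. XRN2, the exonuclease that chases the polymerase after cleavage, was counted 1046, 838, 1633 and 1349 times and rose by 0.29 (SE 0.106, adjusted p = 0.0450, edgeR), a call that DESeq2 did not make and that was lost with the offsets (0.12, adjusted p = 0.307, edgeR).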

How the data were processed

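Gene tables of 4 SH-SY5Y libraries were used, 2 per group, grouped by their titles. In each table the authors deposited raw counts, 1 whole number per gene. The authors deposited TPM and RPKM beside them, as the columns are named per the file headers; these are scaled by gene length and depth. Reads were related to GRCh38, per the submitters' processing notes; the aligner, the counting rule and the use of strand are not given in the sources used here. Summed counts of 5613144 to 8056550 per library set the precision.

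All genes were fitted with edgeR 4.0.16 in R 4.3.3 (filterByExpr with minimum count 10 and minimum total count 15, TMM factors 0.9887 to 1.011, quasi-likelihood test, no covariate), with Benjamini-Hochberg adjustment and a threshold of 0.05. CPM values of single genes are TMM-scaled. Log2 ratios of counts used a pseudocount of 0.5. Exons, positions and junction sequences came from GENCODE 29, with exon overlaps on either strand. Alternatives were other filters, scalings and thresholds, DESeq2 1.42.0, limma-voom (limma 3.58.1), the replicate letter as a block, lowess offsets on length and base composition (span 0.5), leaving out each library, RPKM or TPM in place of counts, and, added after the data were seen, DESeq2 without independent filtering, locus sums, and members with a count in every library. Tested on simulated counts for this comparison, 85.4% of the 198 tested genes given a true log2 fold change of 1 were called among 14698 genes, and 0 of 14745 with no change. The run with changes altered 200 genes and called 172 in all. Every simulated gene had the same biological coefficient of variation (0.0869). These rates therefore do not apply to readthrough genes whose replicates differed more than that.

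The members and gene lists were chosen with earlier results of these data known. Genes named are the 8 largest called rises and all 5 called falls (of up to 8), the 6 members with the most counts, up to 8 members with 0 against 10 or more counts between replicates, their parents, and up to 4 genes per list and direction; others are named as chosen after their values were seen. The values of 1 called member are not reported here, though it is included in the counts.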

Additional observations from a re-analysis of the deposited data

How the results depend on the processing

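The 21 called readthrough genes became 13 (10 higher, 3 lower) with a filter at a mean of 50 counts, where 34 members were tested, 7 (6 higher, 1 lower) with the Wald test of DESeq2 with or without its independent filtering, and 9 (8 higher, 1 lower) at an adjusted p under 0.01. The share of all genes called was taken only for the edgeR fit above (26.2%), DESeq2 without independent filtering (16.1%) and the locus sums (26.9%). Counts under the other settings therefore cannot be set beside all genes. With total counts in place of TMM they were 17, split into 15 higher and 2 lower against 16 and 5. Leaving out 1 library gave 16 to 27 members, 20 to 38 parents and 8 to 20 genes of the termination lists (19 with all libraries, 10 at an adjusted p under 0.01). Offsets on length and base composition kept 15 of the 21 in the same direction, and 9 of the 21 were called without any one library. Among the members with a count in every library 17 were called. Whether the letters a and b pair the libraries is not stated in the labels. The correlation of a-minus-b differences, 0.0442, does not settle it, since single genes can still follow the letter in both groups. With the replicate block 26 members (17 higher, 9 lower) and 35 parents were called. The summed level of the class, 0.14 apart on the log2 scale, was 0.22 apart in TPM, 0.19 apart without the most abundant member and 0.10 to 0.17 apart without 1 library. Signs turned for members that were not called: BOLA2-SMG1P6 reached 0.07 with the offsets (0.0742) and with offsets and replicate block (0.0734), SLX1A-SULT1A3 ranged from -0.29 to 0.0479 and BORCS7-ASMT from -8.09 to 2.67 without 1 library. RPL36A-HNRNPH2 reached 1.17 in limma-voom, 0.12 with the replicate block, 0.0309 with offsets and replicate block, and -1.13 to 6.26 without 1 library. The causes were not tested. A split of 0 against 5 or more counts between replicates was seen in 16 members, where 11 had one of 0 against 10. Depth limits the 25 members with fewer than 100 summed counts the most.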
